A study of Homo sapiens with 20 samples.

Results

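CISH and SOCS1 to SOCS7 form the family of cytokine-inducible SH2 proteins and suppressors of cytokine signalling, and all 8 genes were read by symbol from the deposited gene counts, 1 line per Ensembl identifier. They are 8 of 55093 genes in the tables on BCI and BI-D1870 and 8 of 34213 in the table on persistent cells, and all 8 passed the filter on low counts in each table. RNA came from HEL, an established human erythroleukaemia line that carries JAK2 V617F, an activating mutation of the kinase behind the erythropoietin receptor, so every group shared this allele. There were 20 libraries in 10 groups of 2. The first table held cells given DMSO, the solvent control, or BCI at 1 µM for 4 h or 48 h; BCI blocks DUSP6 and DUSP1, phosphatases that switch off MAP kinases. In the second table, cells had received DMSO, BI-D1870 at 10 µM, or BI-D1870 at 10 µM together with BCI at 1 µM, each for 24 h; BI-D1870 blocks the RSK kinases, which act downstream of ERK. The third table held untreated parental cells, RuxP cells (ruxolitinib-persistent) and FedP cells (fedratinib-persistent), both raised by prolonged growth with the named inhibitor of JAK2. The sources used here do not give whether the persistent cells are clones or pools or whether the inhibitor was present at harvest. They also do not say that the 2 libraries of a group came from separate cultures, and p-values measure the spread between these libraries only.

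Cytokine receptors signal by letting bound JAK kinases phosphorylate the receptor and the STAT transcription factors, which then enter the nucleus. CISH, SOCS1, SOCS2 and SOCS3 are textbook STAT target genes, and their proteins switch the same pathway off: an SH2 domain docks on phosphotyrosine of the receptor or JAK, and a SOCS box recruits elongin B, elongin C and cullin 5, which mark the bound protein with ubiquitin. SOCS1 and SOCS3 also carry a kinase inhibitory region that blocks JAK directly, whereas SOCS4, SOCS5, SOCS6 and SOCS7 are better known for acting on growth factor and insulin receptor signalling.

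Promoter sequence is shown for CISH and SOCS1, the members with a match to either motif searched. RefSeq promoters (GRCh38.p14) were matched by symbol for CISH, SOCS1, SOCS3, SOCS4 and SOCS6, and 6 promoters were searched over the 250 bases before the start, because SOCS3 has 2. The STAT motif TTCNNNGAA, the same on both strands, had 4 matches before CISH and none in the other 5. At least 1 match stood in 6.57% of 35093 promoters of that length, and at least 4 stood in 5 of them. The interferon response motif GAAANNGAAA, searched on both strands, had 1 match, before SOCS1, and 3.02% of promoters held at least 1. Neither stretch searched for SOCS3, chr17:78360926-78361175 and chr17:78359668-78359917, borders the SOCS3 start in GENCODE 29, chr17:78360077 on the minus strand. The first lies farther upstream and the second inside the gene. The bases just before that start were therefore not searched for either motif. In the lines below capitals mark the matches, and each stretch is written 5′ to 3′ on the minus strand, on which both genes lie. The first CISH stretch, at chr3:50611996-50612015, holds the outer pair of STAT motifs and lies inside the first exon, a 5′ UTR, of a MAPKAPK3 transcript on the plus strand. The second, at chr3:50611832-50611907, holds the inner pair and lies outside the annotated exons of both genes. The SOCS1 stretch, at chr16:11256205-11256454, lies upstream of SOCS1 and inside an intron of RMI2 on the plus strand.
CISH, outer pair: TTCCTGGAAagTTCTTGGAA
CISH, inner pair: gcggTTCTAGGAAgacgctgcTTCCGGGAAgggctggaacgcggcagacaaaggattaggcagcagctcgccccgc
SOCS1: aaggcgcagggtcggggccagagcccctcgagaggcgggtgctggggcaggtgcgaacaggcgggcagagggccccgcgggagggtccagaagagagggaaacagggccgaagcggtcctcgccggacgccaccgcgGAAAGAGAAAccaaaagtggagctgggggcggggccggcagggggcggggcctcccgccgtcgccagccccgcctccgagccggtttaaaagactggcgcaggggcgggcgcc
The matches before CISH run from 241 to 233, 230 to 222, 129 to 121 and 112 to 104 bases before its RefSeq start, and the match before SOCS1 from 113 to 104. In GENCODE 29 the CISH start, chr3:50611831, lies inside the stretch searched, chr3:50611775-50612024, so the matches are nearer to that start. The GENCODE starts of SOCS4, chr14:55027230, and SOCS6, chr18:70288901, also lie inside their stretches, chr14:55026986-55027235 and chr18:70288795-70289044. A match is a run of letters and does not show that a factor binds there.

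In GENCODE 29 (GRCh38) the members lie at chr3:50606490-50611831 for CISH (ENSG00000114737), chr16:11254405-11256200 for SOCS1 (ENSG00000185338), chr12:93569814-93583487 for SOCS2 (ENSG00000120833) and chr17:78356778-78360077 for SOCS3 (ENSG00000184557). SOCS4 (ENSG00000180008) lies at chr14:55027230-55049488, SOCS5 (ENSG00000171150) at chr2:46698952-46780245, SOCS6 (ENSG00000170677) at chr18:70288901-70330200 and SOCS7 (ENSG00000274211) at chr17:38352228-38405593. CISH shares 218 exon bases with MAPKAPK3, which lies on the other strand and had 5685 to 23513 counts per library. SOCS2 shares 277 exon bases with its antisense gene SOCS2-AS1, which had 156 to 441 counts in the first 2 tables. The sources used here do not give the strand setting of the counting, and reads from these shared bases cannot be told apart.

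Libraries held 51799814 to 84452743 counts, so that the upper limit a count of 0 allows, 3 counts, was 0.0351 to 0.0604 CPM (counts scaled to the size of the library), by counting error alone. All 14 erythroid and megakaryocytic markers checked were above 1 CPM in every library, and none of the 6 epithelial and stromal markers was. The parental and RuxP pairs stood apart from the other 8 pairs: the SD of the log2 count ratio between the 2 libraries of a pair was 1.00 in parental and 1.17 in RuxP cells, against 0.368 to 0.604 elsewhere. Calls are at a Benjamini-Hochberg adjusted p under 0.05 in edgeR's quasi-likelihood test over all genes of a table.

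SOCS3 and CISH had the highest levels of the family per kilobase of exon in both inhibitor tables. At 4 h in DMSO, SOCS3 stood at 25.2 ± 0.241 CPM per kilobase and CISH at 13.5 ± 1.08 (SD, n = 2), and SOCS7 followed at 5.68 ± 0.0611. SOCS3 ranked first and CISH second in all 4 groups of the BCI table and all 3 of the BI-D1870 table. At 48 h their libraries overlapped in both groups, with 11.1 and 14.4 CPM per kilobase for SOCS3 and 13.1 and 11.7 for CISH in BCI, and 12.7 and 17.6 for SOCS3 and 12.4 and 13.1 for CISH in DMSO, so that order was within the spread there. The other 6 members lay between 2.12 and 5.68 CPM per kilobase in group mean in those 7 groups. In parental cells the order was different: CISH stood at 5.69 ± 2.90 CPM per kilobase, SOCS5 at 4.87 ± 1.09, SOCS3 at rank 5 with 2.81 ± 1.44 and SOCS1 last at 0.702 ± 0.322 (SD, n = 2). Libraries of each neighbouring pair among the first 7 overlapped there, and SOCS1 lay below the others in both libraries. In RuxP cells CISH (8.81 ± 2.41 CPM per kilobase) and SOCS3 (7.73 ± 0.376) overlapped, as did SOCS3 (12.6 and 11.5) and CISH (12.1 and 11.7) in FedP cells, and in both lines they lay above the other 6. SOCS1 was last of the 8 in 7 of the 10 groups and at rank 4 in DMSO at 4 h, in BCI at 4 h and in FedP cells.

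**Figure D1:**
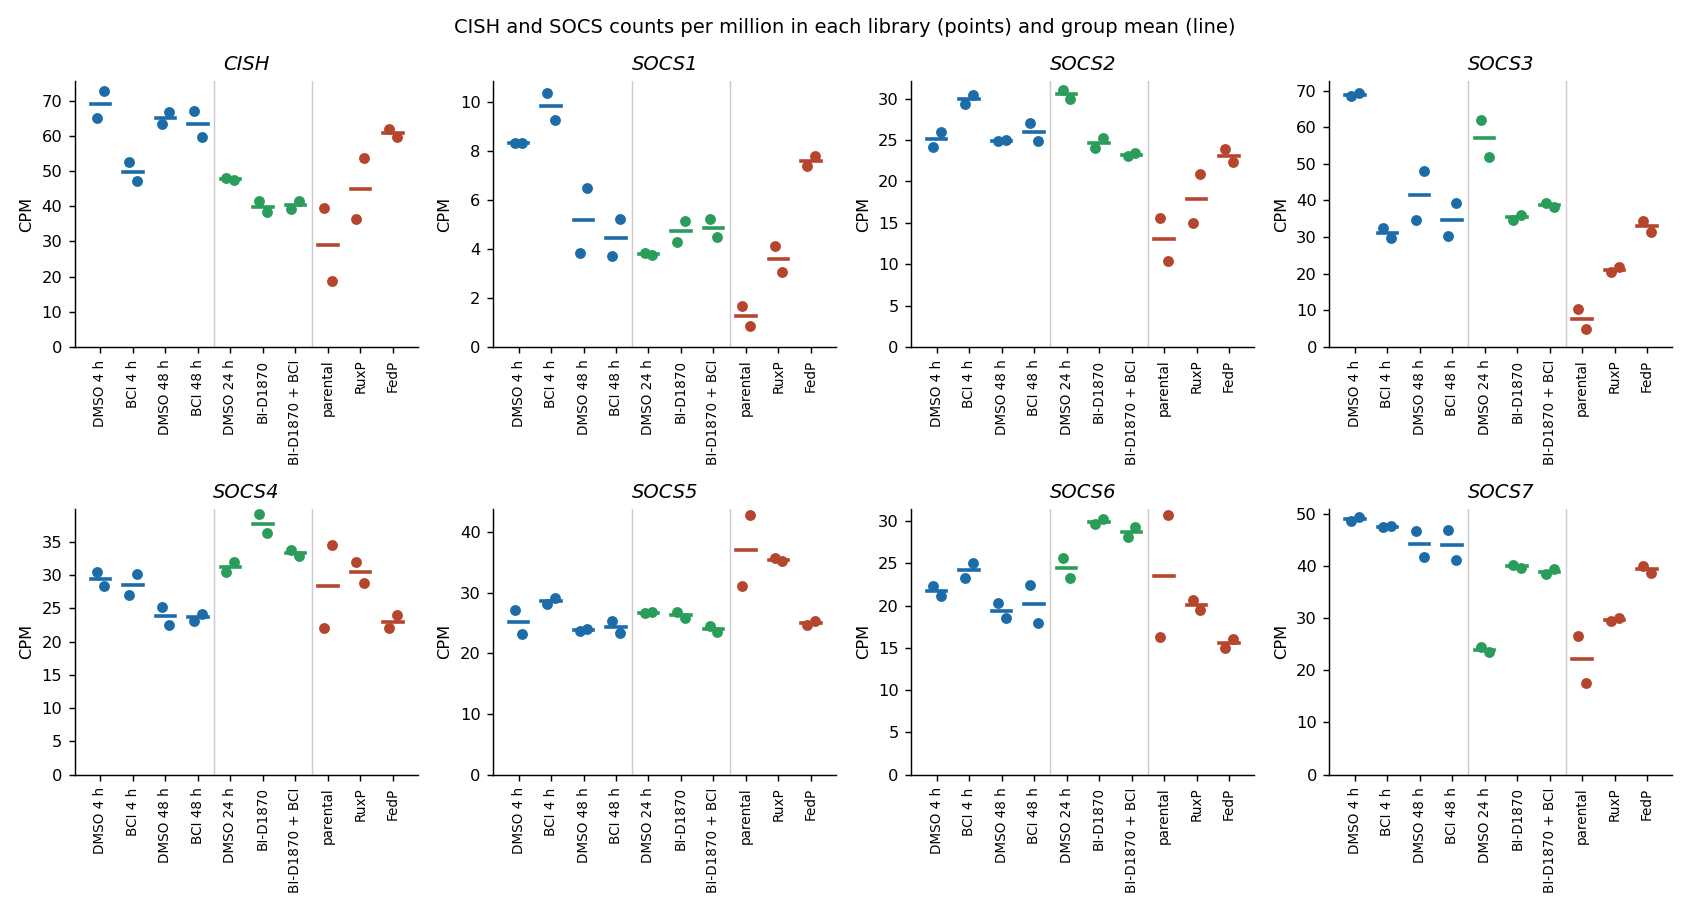
CPM (y axis, from 0) of each of the 8 genes in every library (points) of the 10 groups (x axis), with the group mean as a line and grey lines between the 3 tables, which were scaled separately. SOCS3 falls from 68.9 to 31.1 CPM with BCI at 4 h, and SOCS1 runs from 0.853 CPM in a parental library to 7.79 CPM in a FedP library.

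The comparison of BCI with DMSO asks how these feedback genes stand after short and long treatment with BCI. The counts do not measure the activity of the 2 phosphatases. SOCS3 and CISH fell after 4 h of BCI, SOCS3 from a mean of 68.9 to 31.1 CPM (2.21-fold in the fit), and no member rose at the threshold. SOCS3, which blocks JAK through its kinase inhibitory region, had 68.5 and 69.4 CPM in the DMSO libraries and 32.5 and 29.8 CPM in the BCI libraries. Both BCI libraries lay far below both DMSO libraries, the log2 fold change was -1.15 (SE 0.163, adjusted p = 0.00222, edgeR), and the call held without any 1 library. In RNA of a whole culture, fewer cells with a transcript and less of it per cell cannot be told apart. CISH, which docks on the erythropoietin receptor, had 65.1 and 72.9 CPM in DMSO and 52.5 and 47.3 CPM in BCI. The groups did not overlap and the log2 fold change was -0.47 (SE 0.0970, adjusted p = 0.0137, edgeR). Without either DMSO or either BCI library of 4 h the CISH call was lost, with adjusted p up to 0.182 and log2 fold changes from -0.55 to -0.38. MAPKAPK3, which shares exon bases with CISH, fell by 0.26 on the log2 scale in the same comparison (SE 0.0708, adjusted p = 0.0459), and its part in the counts of CISH was not tested.

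The other 6 members were not called after 4 h of BCI. SOCS2, which restrains growth hormone receptor signalling, had 24.2 and 26.0 CPM in DMSO and 29.4 and 30.5 CPM in BCI, with both BCI libraries higher. Its log2 fold change was 0.26 (SE 0.0929, adjusted p = 0.121, edgeR), and it passed when only the 2 groups compared were fitted (0.25, adjusted p = 0.0114). SOCS2-AS1, which shares exon bases with SOCS2, had 0.54 (SE 0.176, adjusted p = 0.0883, edgeR), and its part in the counts of SOCS2 was not tested. SOCS1, the most potent JAK inhibitor of the family, had 8.32 and 8.33 CPM in DMSO and 10.4 and 9.27 CPM in BCI (log2 fold change 0.24, adjusted p = 0.621). SOCS5, SOCS6, SOCS4 and SOCS7 had log2 fold changes of 0.19, 0.15, -0.04 and -0.04. Of all genes tested, 11.1% were called in this comparison, against 2 of the 8 members, both lower. Libraries of the 2 groups did not overlap for 7 members, all but SOCS4, and the share of all genes without overlap was not counted. The members' median log2 fold change was 0.06, against 0.02 over all genes.

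After 48 h of BCI none of the 8 members was called against DMSO, and none had an unadjusted p under 0.05. SOCS3 had 34.6 and 48.1 CPM in DMSO and 30.2 and 39.3 CPM in BCI, and the libraries overlapped. Its log2 fold change was -0.25 (adjusted p = 1, edgeR). CISH had 63.3 and 66.8 CPM in DMSO and 67.1 and 59.6 CPM in BCI, again overlapping (log2 fold change -0.04), and the libraries of the 2 groups overlapped for all 8 members. No gene of the table was called (0%) by edgeR, which gave 298 genes with an unadjusted p under 0.05, and DESeq2 called none either.

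The change of the BCI effect from 4 h to 48 h was tested as a difference of differences. For SOCS3 it was 0.90 on the log2 scale (SE 0.229, adjusted p = 0.0692, edgeR), and for CISH 0.43 (SE 0.137, adjusted p = 0.130). No member was called by edgeR, beside 3.6% of all genes, and 2 had an unadjusted p under 0.05. Leaving out 3 of the 4 libraries of 48 h, 1 at a time, brought SOCS3 under the threshold: adjusted p was 0.0313 without DMSO replicate 1, 0.00248 without DMSO replicate 2 and 0.0281 without BCI replicate 1. DESeq2 also called it, at an adjusted p of 0.00274.

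DMSO controls themselves differed between the times. SOCS3 fell from 68.9 ± 0.659 CPM at 4 h to 41.4 ± 9.53 CPM at 48 h (SD, n = 2), a log2 fold change of -0.74 (SE 0.162, adjusted p = 0.00902, edgeR). The 48 h libraries, 34.6 and 48.1 CPM, both lay below the 4 h libraries but far from each other. The call was lost without DMSO 4 h replicate 1 (adjusted p = 0.0519) or replicate 2 (adjusted p = 0.0564). SOCS1 had 3.82 and 6.51 CPM at 48 h, below both 4 h libraries, with a log2 fold change of -0.69 (SE 0.241, adjusted p = 0.0603). SOCS3 was the member called here, 1 of 8, beside 26.9% of all genes. The mean of SOCS3 in DMSO at 48 h lay nearer to its mean in BCI at 4 h, 31.1 CPM, than to that in DMSO at 4 h. Of the lists described next, 10 receptor, JAK and STAT genes rose and 7 fell between the times, 2 other inhibitors rose and 4 fell, 5 SOCS box partners fell and none rose, and 1 STAT-induced gene rose and 6 fell. Without DMSO 4 h replicate 1 these calls numbered 8, 2 and 1 for the first 3 lists, and without replicate 2 they numbered 9, 3 and 2, with 1 for the STAT-induced genes.

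The other genes of the pathway were taken from 4 lists: cytokine receptor, JAK and STAT genes, other inhibitors of JAK and STAT signalling, partners of the SOCS box in the ubiquitin ligase, and other STAT-induced genes. The lists were chosen with earlier results of these data known, so their counts are no independent test, and STAT activity was not measured. Of 19 tested genes known to be induced by STATs beside the family, 12 fell and none rose after 4 h of BCI, with a median log2 fold change of -0.73, beside 11.1% of all genes called and a median of 0.02. The largest falls were in CCND1, which encodes cyclin D1 (-1.68), in the adhesion molecule ICAM1 (-1.44), in the NF-kappaB partner BCL3 (-1.38) and in the AP-1 subunit JUNB (-1.04). Of 33 tested cytokine receptor, JAK and STAT genes, 3 rose and 4 fell. IL7R, the interleukin 7 receptor, rose from 13.9 ± 0.301 to 54.1 ± 2.51 CPM (SD, n = 2), and IL4R (-0.97) and STAT5A (-0.61) fell. This count of 7 was 4 without DMSO 4 h replicate 2 or without BCI 4 h replicate 1. Of 13 tested other inhibitors of the pathway 1 rose and 1 fell, and of 10 tested partners of the SOCS box 1 fell, both near the share over all genes. With only the groups compared fitted, 15 receptor, JAK and STAT genes, 6 other inhibitors and 2 SOCS box partners were called, beside a share of all genes not given here. Without DMSO 4 h replicate 2 or either BCI library of 4 h, none of these 3 calls held. Without DMSO 4 h replicate 1 only that of CBLB did, and without either BCI library of 48 h again only CBLB. At 48 h no gene of the 4 lists was called by edgeR. In the test of the change from 4 h to 48 h, 8 of the 19 STAT-induced genes were called, all higher, beside 3.6% of all genes, but 3 or 4 without any 1 of the 4 libraries of 4 h.

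**Figure D2:**
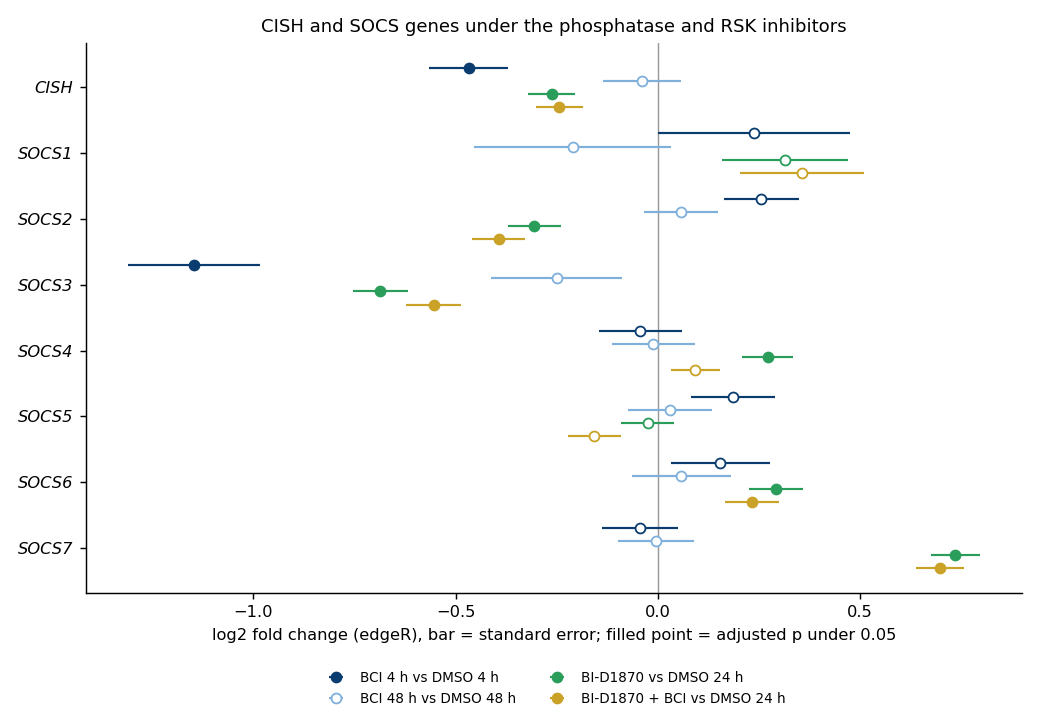
Log2 fold change (x axis) of each of the 8 genes (y axis) with BCI at 4 h, BCI at 48 h, BI-D1870 and BI-D1870 with BCI, each against its own DMSO libraries, with bars for the standard error and filled points for adjusted p under 0.05. SOCS3 lies left of 0 and is filled in 3 of 4 comparisons (-1.15, -0.69 and -0.55), and SOCS7 is filled on the right under both treatments with BI-D1870 (0.74 and 0.70).

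The comparisons with BI-D1870 ask how the family stands under this RSK inhibitor, alone or with BCI. The counts do not measure the activity of RSK kinases. Under BI-D1870 alone SOCS3, SOCS2 and CISH fell and SOCS7, SOCS6 and SOCS4 rose, beside 47.1% of all genes called. Thus 3 of the 4 members known as STAT targets were lower and 3 of the other 4 were higher, a split that was not tested. The remaining STAT target, SOCS1, was not called and had a log2 fold change of 0.32. SOCS3 had 62.1 and 51.9 CPM in DMSO and 34.6 and 36.1 CPM in BI-D1870, with no overlap. Its log2 fold change was -0.69 (SE 0.0690, adjusted p = 5.2e-08, edgeR). SOCS2 had 31.1 and 29.9 CPM in DMSO and 24.1 and 25.3 CPM in BI-D1870. Both treated libraries were lower, with a log2 fold change of -0.31 (SE 0.0658, adjusted p = 5.2e-04), while SOCS2-AS1 had 0.12 (adjusted p = 0.611). CISH had 48.2 and 47.6 CPM in DMSO and 41.5 and 38.3 CPM in BI-D1870, a log2 fold change of -0.26 (SE 0.0581, adjusted p = 6.8e-04). Both treated libraries lay lower, and without BI-D1870 replicate 2 the value was -0.17 (adjusted p = 0.0672). MAPKAPK3 had nearly the same log2 fold change as CISH, -0.24 (SE 0.0377, adjusted p = 1.4e-05), and its part in the counts of CISH was not tested.

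SOCS7, which binds adaptor proteins of insulin and growth factor receptors, rose most of the family. It had 24.5 and 23.5 CPM in DMSO and 40.2 and 39.6 CPM in BI-D1870, and the groups were far apart. The log2 fold change was 0.74 (SE 0.0604, adjusted p = 1.0e-09, edgeR). SOCS6, which acts on the receptor KIT and on insulin signalling, had 25.6 and 23.3 CPM in DMSO and 29.6 and 30.3 CPM in BI-D1870 (log2 fold change 0.29, SE 0.0677, adjusted p = 0.00103). SOCS4, which targets the receptor of epidermal growth factor, had 30.5 and 31.9 CPM in DMSO and 39.1 and 36.3 CPM in BI-D1870 (log2 fold change 0.27, SE 0.0620, adjusted p = 9.1e-04). Neither pair of groups overlapped. SOCS1 had 3.84 and 3.77 CPM in DMSO and 4.29 and 5.15 CPM in BI-D1870, and its log2 fold change of 0.32 was not called (SE 0.156, adjusted p = 0.105). SOCS5, a relative of SOCS4, did not separate the groups, with 26.72 and 26.73 CPM in DMSO and 26.73 and 25.8 CPM in BI-D1870 (log2 fold change -0.03). Of all genes, 47.1% were called, so the 6 of 8 members called stand beside a background of nearly 1 in 2.

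With BCI added to BI-D1870, SOCS3, SOCS2 and CISH were again lower than in DMSO, and SOCS7 and SOCS6 again higher. Against DMSO, SOCS3 fell to 39.2 and 38.4 CPM (log2 fold change -0.55, adjusted p = 8.1e-07, edgeR), SOCS2 to 23.1 and 23.4 CPM (-0.39, adjusted p = 2.9e-05) and CISH to 39.3 and 41.5 CPM (-0.24, adjusted p = 0.00124). MAPKAPK3 had nearly the same log2 fold change as CISH, -0.25 (SE 0.0376, adjusted p = 6.5e-06, edgeR), and its part in the counts of CISH was not tested. SOCS7 rose to 38.4 and 39.4 CPM (0.70, adjusted p = 2.1e-09) and SOCS6 to 28.2 and 29.3 CPM (0.23, adjusted p = 0.00625). The SOCS6 call was lost without DMSO 24 h replicate 2 (0.16, adjusted p = 0.105). SOCS4 had 33.8 and 32.8 CPM (0.09, adjusted p = 0.236), SOCS1 5.24 and 4.50 CPM (0.36, adjusted p = 0.0632) and SOCS5 24.5 and 23.5 CPM (-0.16, adjusted p = 0.0562), and none of these 3 was called. Of the 8 members 5 were called, beside 46.8% of all genes. Libraries did not overlap for any of the 8 members, and the share of all genes without overlap was not counted. SOCS1 passed without BI-D1870 replicate 2 (adjusted p = 0.0475) and without replicate 2 of the combination (adjusted p = 0.0418). Both comparisons share the DMSO libraries.

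Tested directly against BI-D1870 alone, the combination changed none of the 8 members by edgeR, and the lowest adjusted p was 0.110, for SOCS4 (log2 fold change -0.18), the 1 member with an unadjusted p under 0.05. DESeq2 called none either. SOCS3 stood at 35.4 ± 1.08 CPM with BI-D1870 and 38.8 ± 0.622 CPM with both inhibitors (SD, n = 2), CISH at 39.9 ± 2.25 and 40.4 ± 1.57 CPM. Libraries did not overlap for 6 members, again without a count over all genes, and 4.9% of all genes were called. The treatments also moved the markers of HEL identity: the 14 erythroid and megakaryocytic markers summed to 7122 and 7147 CPM in DMSO, 5574 and 5736 CPM in BI-D1870 and 4391 and 4719 CPM in the combination. The 6 lymphoid markers summed to 20.1 and 21.3 CPM in DMSO, 5.15 and 5.12 CPM in BI-D1870 and 6.90 and 5.78 CPM in the combination. Nearly all of this was CD2, with 14.7 and 15.8 CPM in DMSO and 2.70 and 2.98 CPM in BI-D1870, and CD79A, while CD3D and MS4A1 had no count in the table. The 6 monocyte and granulocyte markers summed to 11.5 to 15.2 CPM over its libraries, lower with BI-D1870 than in DMSO. The part of these markers in the levels of the family was not tested.

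Counts for the 4 pathway lists in the BI-D1870 table stand beside 47.1% of all genes called under BI-D1870 and 46.8% with both inhibitors, and whether a list was called more often than other genes was not tested. Of 19 tested STAT-induced genes, 5 rose and 11 fell under BI-D1870 (median -0.55), and 5 rose and 10 fell with both inhibitors (median -0.64). The largest falls under BI-D1870 alone were in the interferon-induced GTPase GBP1 (-2.68), in the kinase PIM1, from 639 ± 44.3 to 155 ± 4.64 CPM (-2.04), and in CCND2, the gene of cyclin D2 (-1.46). Among 33 receptor, JAK and STAT genes 12 rose and 12 fell, with IL2RG, the shared gamma chain (-1.80), CSF2RB, the shared beta chain of the interleukin 3 and GM-CSF receptors (-1.54), and the leptin receptor LEPR (-1.36) among the falls. Of 13 other inhibitors 7 rose and 3 fell. SH2B3, the adaptor LNK that restrains JAK2, rose (0.84), as did PIAS4 (0.56) and PIAS3 (0.55), and the phosphatase CD45, encoded by PTPRC, fell (-1.68). Of 10 partners of the SOCS box 5 rose and 3 fell, among them ELOB, which encodes elongin B (0.23). This count of 8 was 4 without DMSO 24 h replicate 1 or BI-D1870 replicate 1, and 5 by DESeq2. Between the combination and BI-D1870 alone, 3 receptor, JAK and STAT genes, 1 other inhibitor and 5 STAT-induced genes were called, beside 4.9% of all genes, among them PTPN6, the phosphatase SHP-1 (0.40), CCND2 (-0.41) and PIM2 (-0.36). Without either BI-D1870 library, or without replicate 2 of the combination, no receptor, JAK or STAT gene was called, and 2 or 3 STAT-induced genes were.

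The third table asks how the feedback genes stand in cells that grow despite long exposure to a JAK2 inhibitor. SOCS1 was 5.98-fold and SOCS3 4.28-fold higher in FedP than in parental cells, and no member was lower at the threshold. SOCS1 had 1.67 and 0.853 CPM in parental cells, from 96 and 44 counts, and 7.37 and 7.79 CPM in FedP cells. The FedP libraries were close together and far above both parental libraries, with a log2 fold change of 2.58 (SE 0.375, adjusted p = 0.0190, edgeR). SOCS3 had 10.5 and 4.90 CPM in parental cells and 34.4 and 31.5 CPM in FedP cells. Its log2 fold change was 2.10 (SE 0.356, adjusted p = 0.0288), again with no overlap. Neither call held without either RuxP or either FedP library, with adjusted p from 0.0503 to 0.0710 for SOCS1 and from 0.0592 to 0.0824 for SOCS3, at log2 fold changes of 2.54 to 2.62 and 2.03 to 2.16. With only parental and FedP libraries fitted, SOCS1 passed (adjusted p = 0.0489) and SOCS3 did not (adjusted p = 0.0786), and with the replicate number as a block neither did (adjusted p = 0.0503 and 0.0692). DESeq2 called both, at adjusted p of 7.1e-08 and 2.0e-07, and 5 members in all, and its share of all genes is not given here.

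CISH, SOCS2 and SOCS7 were also higher in both FedP libraries than in both parental libraries, without passing the test. CISH had 39.6 and 18.6 CPM in parental cells and 62.0 and 59.6 CPM in FedP cells (log2 fold change 1.06, SE 0.378, adjusted p = 0.162, edgeR). MAPKAPK3 had 0.23 in this comparison (adjusted p = 0.697). SOCS2 had 15.6 and 10.4 CPM in parental cells and 23.9 and 22.3 CPM in FedP cells (0.83, SE 0.266, adjusted p = 0.133), and SOCS7 had 26.6 and 17.6 CPM and 40.0 and 38.7 CPM (0.83, SE 0.224, adjusted p = 0.0918). SOCS5 and SOCS6 lay lower in both FedP libraries: SOCS5 had 31.1 and 42.8 CPM in parental and 24.7 and 25.3 CPM in FedP cells (-0.56, adjusted p = 0.154), and SOCS6 had 16.3 and 30.7 CPM and 15.0 and 16.0 CPM (-0.60, adjusted p = 0.288). SOCS4 overlapped, with 22.1 and 34.6 CPM in parental and 22.0 and 24.0 CPM in FedP cells. In all, 2 of 8 members were called, beside 6.03% of all genes. The members' median log2 fold change was 0.83, against 0.01 over all genes. Groups did not overlap for 7 members, and the share of all genes without overlap was not counted.

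RuxP cells held levels between those of parental and FedP cells for SOCS1, SOCS3, CISH, SOCS2 and SOCS7 in group mean, and none was called against parental cells by edgeR. SOCS1 had 4.12 and 3.06 CPM, above both parental libraries (log2 fold change 1.50, SE 0.369, adjusted p = 0.0736). SOCS3 had 20.4 and 21.9 CPM, also above both (1.46, SE 0.351, adjusted p = 0.0699). SOCS7, at 29.45 and 29.95 CPM, was the only other member without overlap (0.43, adjusted p = 0.311). CISH had 36.3 and 53.7 CPM and SOCS2 15.0 and 20.9 CPM, each with 1 library within the parental range. SOCS4 (0.10), SOCS5 (-0.06) and SOCS6 (-0.23) overlapped too. Beside 0 of 8 members, 5.75% of all genes were called, and SOCS1 and SOCS3 had an unadjusted p under 0.05. DESeq2 called SOCS1 (adjusted p = 0.00502) and SOCS3 (adjusted p = 6.8e-04), and 2 members passed without the low-count filter as well.

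The size of the changes depended on the parental libraries. Parental replicate 1 lay nearer to the FedP mean than parental replicate 2 did for all 8 members. The log2 fold change of SOCS1 in FedP cells was 3.15 without replicate 1 and 2.19 without replicate 2, and that of SOCS3 2.75 and 1.66. CISH moved from 1.71 to 0.62 between these fits, and SOCS6 from -0.98 to -0.07. In RuxP cells SOCS4, SOCS5 and SOCS6 changed sign without parental replicate 1 or 2, and SOCS4 did so in FedP cells without parental replicate 2 (0.07).

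**Figure D3:**
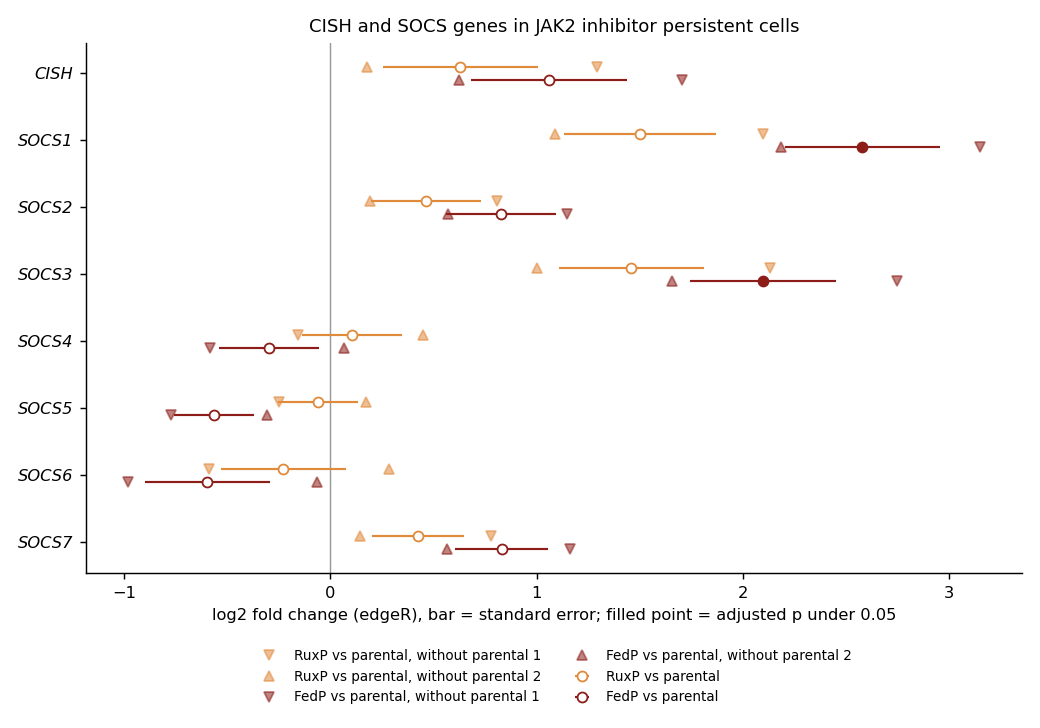
Log2 fold change (x axis) of each of the 8 genes (y axis) in RuxP and FedP cells against parental cells, with bars for the standard error, filled circles for adjusted p under 0.05 and triangles for the value without parental replicate 1 or 2. The filled circles are SOCS1 (2.58) and SOCS3 (2.10) in FedP cells, and the triangles for SOCS3 in FedP cells stand at 1.66 and 2.75.

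FedP and RuxP cells were also compared directly. SOCS1 was 1.08 higher on the log2 scale in FedP cells (SE 0.352, adjusted p = 0.124, edgeR) and SOCS3 0.64 higher (adjusted p = 0.244), while SOCS5 had -0.50 (adjusted p = 0.150). No member was called by edgeR, beside 1.15% of all genes. At an unadjusted p under 0.05 stood 2 members, and 4920 of all genes. The libraries did not overlap for any of the 8 members, and the share of all genes without overlap was not counted here either. DESeq2 called SOCS1 (adjusted p = 0.0412). When RuxP and FedP were fitted without the parental libraries 6 members were called: SOCS1 (1.03, adjusted p = 0.0229), SOCS3 (0.60, adjusted p = 0.0178), SOCS7 (0.36, adjusted p = 0.0395), SOCS4 (-0.45, adjusted p = 0.0436), SOCS5 (-0.54, adjusted p = 0.0178) and SOCS6 (-0.41, adjusted p = 0.0476). The share of all genes called in that fit is not given here, so the 6 calls cannot be set against it. The 14 erythroid and megakaryocytic markers summed to 7764 and 4935 CPM in the parental libraries, 2970 and 3521 CPM in RuxP and 5624 and 5488 CPM in FedP cells. The lymphoid markers summed to 9.83 and 11.9 CPM in parental, 4.91 and 7.33 CPM in RuxP and 13.2 and 13.7 CPM in FedP cells. The monocyte and granulocyte markers summed to 42.3 to 55.7 CPM over the table, nearly all of it LYZ, with 41.6 to 54.3 CPM. The part of these markers in the levels of the family was not tested.

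Of the 4 lists in the third table, the STAT-induced genes had 3 of 19 called in each persistent line, all higher, with medians of 0.50 in RuxP and 0.81 in FedP cells. Over all genes 5.75% were called in RuxP and 6.03% in FedP cells, with medians of -0.04 and 0.01. CCND2 rose from 146 ± 2.42 CPM in parental cells to 321 ± 3.18 CPM in RuxP (1.13) and 427 ± 5.17 CPM in FedP cells (1.54) (SD, n = 2). Among 33 receptor, JAK and STAT genes 4 rose and 2 fell in RuxP cells, and 4 rose and 3 fell in FedP cells. IL4R, the interleukin 4 receptor, rose in both (1.54 and 1.84), and IL6ST, the shared receptor chain gp130, fell in both (-1.46 and -2.18). CSF2RB rose in FedP cells (1.52). Among 13 other inhibitors, PTPRC rose in FedP cells (0.80) and none passed in RuxP cells, and none of 10 SOCS box partners passed in either, by edgeR. DESeq2 called 2 of the inhibitors and 1 SOCS box partner in each line. Both lines were compared with the same parental libraries. The RuxP calls of CCND2, IL4R and IL6ST were lost without either RuxP library. The FedP calls of CCND2, IL4R and IL6ST held without any 1 library, and those of PTPRC and CSF2RB were lost without either RuxP or either FedP library. The list counts moved both ways, and the shares of all genes called in these other fits are not given here. In FedP cells the 7 receptor, JAK and STAT genes were 3 without either FedP library, 4 without either RuxP library, 2 with a replicate block, 3 with only the groups compared and 13 by DESeq2. Without parental replicate 1 the FedP counts were 10 STAT-induced genes, 14 receptor, JAK and STAT genes, 5 other inhibitors and 3 SOCS box partners. In RuxP cells the 6 receptor, JAK and STAT genes and 3 STAT-induced genes were 0 and 0 without RuxP replicate 1, 1 and 1 without RuxP replicate 2, 0 and 1 with a replicate block, 2 and 0 with only the groups compared, and 12 and 6 by DESeq2. In that line 6 STAT-induced genes passed without either parental library, and 17 receptor, JAK and STAT genes, 5 other inhibitors and 3 SOCS box partners passed without parental replicate 2.

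**Figure D4:**
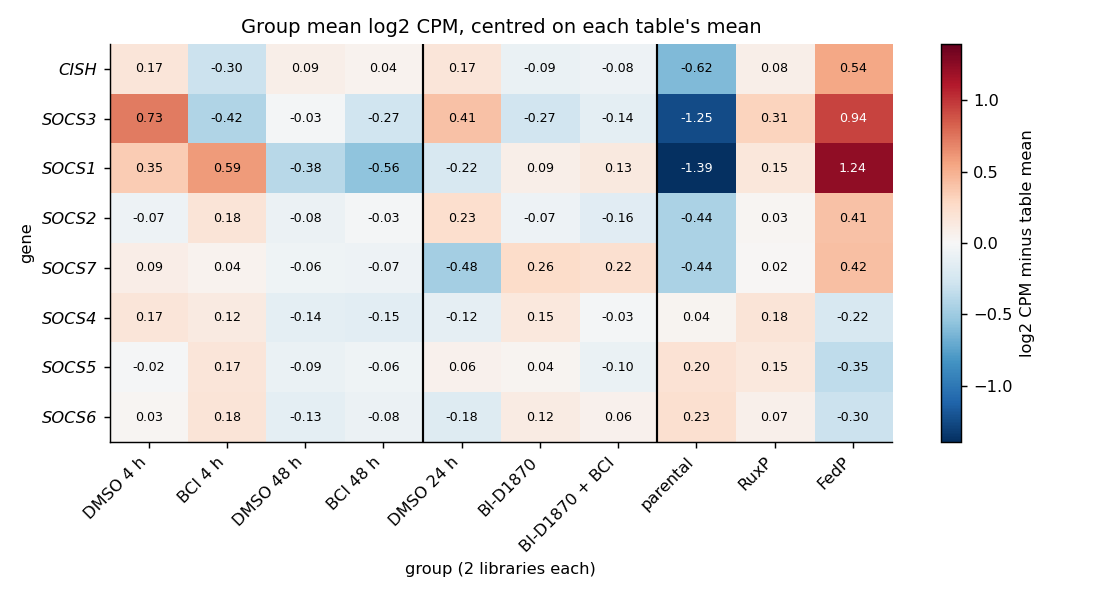
Group mean of log2 CPM of each of the 8 genes (rows) in the 10 groups (columns), each table centred on the mean of its own groups, with the colour and the number giving the difference from that mean in log2 units. SOCS1 and SOCS3 run from -1.39 and -1.25 in parental to 1.24 and 0.94 in FedP cells, and SOCS4, SOCS5 and SOCS6 run the other way there.

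Members were set against each other over the 10 group means, each table centred on the mean of its own groups. CISH and SOCS3 had the highest correlation of any pair (r = 0.94), and SOCS1 had 0.79 with SOCS2 and 0.78 with SOCS7. SOCS4 and SOCS6 had 0.81, SOCS5 and SOCS6 had 0.80, and CISH and SOCS6 had -0.88. Nearest to 0 were SOCS1 with SOCS4 (-0.0023), SOCS4 with SOCS7 (0.05) and SOCS6 with SOCS7 (-0.17). SOCS7 had 0.35 with SOCS2 and -0.61 with SOCS5. The remaining pairs lay farther from 0 on either side, among them CISH with SOCS5 (-0.77), SOCS1 with SOCS3 (0.75) and CISH with SOCS2 (0.74). The points share tables, controls and depth, and the parental and FedP groups lie farthest from the centre, so these values describe 10 means only. Of 9878 genes compared, those most like CISH were CDC42EP4 (r = 0.98), RASSF5 (0.98) and MRPL52 (0.98). Those most like SOCS3 were SLCO4A1 (0.98), DYRK4 (0.97) and VDR, the vitamin D receptor (0.97), and those most like SOCS1 were KRT10 (0.99), SPCS1 (0.98) and PLXNA1 (0.98). SOCS2 was followed most closely by GNA15 (0.98), MLLT3 (0.98) and RBPMS (0.97), SOCS4 by PPP2CA (0.98), MOB1A (0.98) and COX6C (0.98), SOCS6 by HIPK3 (0.99), CNOT4 (0.99) and ZNF112 (0.98), and SOCS7 by TRAPPC2L (0.98), CYTH3 (0.98) and ZNF18 (0.97). SOCS5 was called in no comparison, and no gene was sought for it.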

How the data were processed

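HEL libraries were assigned to groups from the labels and column headings. The deposited values are raw counts per gene, per the labels, and the submitters' processing notes name bcl2fastq, STAR 2.5.1a, edgeR and the build GRCh38. The sources used here do not give the counting program, its strand setting, the gene annotation or the library kit. Among counts from 1 to 20, 59.8 to 73.1% were even, so a fragment may stand for 2 counts, which would double the floor of 3 counts. Columns for the later time in the BCI table are headed 24h; their labels give 48 h, which was used. The columns of the BI-D1870 table carry no time, and the labels give 24 h. Where a gene had several lines with identical counts (116, 116 and 130 extra lines), only the first was used.

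Each table was fitted separately in R 4.3.3 with edgeR 4.0.16: filterByExpr by group, TMM scaling, a robust quasi-likelihood model with all groups of the table and no replicate block, and Benjamini-Hochberg adjustment over the 21908, 21328 and 15924 genes tested. Residual degrees of freedom were 4, 3 and 3, and the biological coefficient of variation was 13.3%, 5.01% and 26.9%. CPM are counts over TMM-scaled library size, and log2 CPM used a prior count of 2. A standard error is the fold change (log2) divided by the square root of its F statistic. CPM were divided by the length of the union of GENCODE 29 exons. Named genes were all 8 members, the 3 genes most like each called member among those with a mean of at least 4 CPM in each table, and up to 4 called genes per list and comparison. The members, lists and rules were chosen with earlier results of these data known, and the effects of the alternatives on the lists were added after the data were seen. Alternatives were DESeq2 size factors, no low-count filter, DESeq2 1.42.0, only the groups compared, a replicate block and each library left out. The code was tested on simulated data. The values of 1 gene among the receptor, JAK and STAT genes are not reported here.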

Additional observations from a re-analysis of the deposited data

How the results depend on the processing

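Depth limited SOCS1 most, with 44 counts in a parental library, and groups of 2 libraries limited every test. Over 80 results on the members, 936 alternative values held 827 with the same direction and side of the threshold, 19 that lost a call, 56 that gained one and 34 of the opposite sign, none of the last for a called result; the cause was not tested. Calls among the 8 members at 4 h of BCI numbered 1 to 2 with a library left out. For 48 h against 4 h in DMSO they numbered 1, and 2 with DESeq2 size factors, 2 without the low-count filter, 3 with a replicate block, 3 by DESeq2 and 0 to 2 with a library left out. For the change of the BCI effect they numbered 0, and 1 (SOCS3) without the filter, 1 with the block, 1 by DESeq2 and 0 to 1 with a library left out. For RuxP they numbered 0, and 2 without the filter, 2 by DESeq2 and 0 to 4 with a library left out. For FedP they numbered 2, and 0 with the block, 5 by DESeq2, 1 with only the groups compared and 0 to 8 with a library left out. For FedP against RuxP they numbered 0, and 1 by DESeq2, 6 with only the groups compared and 0 to 5 with a library left out. Counts for BCI at 48 h, BI-D1870, the combination and the combination against BI-D1870 stayed within 1.5 times. The shares of all genes called in these alternatives are not given here.

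No label ties equal replicate numbers to a shared culture or day. Deviations of same-numbered libraries correlated at 0.83 for DMSO and BCI at 48 h, at -0.72 for parental and RuxP cells and at -0.29 to 0.37 for the other pairs of groups, so the numbers were not taken as pairs. With the replicate block the counts were 2 (BCI at 4 h), 0 (48 h), 6 (BI-D1870), 6 (combination), 0 (combination against BI-D1870), 0 (RuxP) and 0 (FedP).

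The sign turned without the low-count filter for SOCS2 in DMSO at 48 h against 4 h (0.0034) and SOCS5 under BI-D1870 (0.0014). Where 1 library of a group was left out, the other was taken to vary like the libraries of the other groups. With a library left out, the log2 fold changes at 48 h of BCI ran from -0.13 to 0.053 for CISH, -0.54 to 0.22 for SOCS1, -0.0042 to 0.13 for SOCS2, -0.46 to 0.0040 for SOCS3, -0.093 to 0.084 for SOCS4, -0.029 to 0.097 for SOCS5, -0.11 to 0.22 for SOCS6 and -0.10 to 0.095 for SOCS7. At 4 h SOCS4 ran from -0.12 to 0.033. The change of the BCI effect ran from -0.050 to 0.12 for SOCS4, -0.27 to 0.058 for SOCS6 and -0.063 to 0.13 for SOCS7. DMSO at 48 h against 4 h ran from -0.065 to 0.040 for SOCS2 and -0.19 to 0.034 for SOCS5. SOCS5 under BI-D1870 ran from -0.047 to 0.034, and the combination against BI-D1870 from -0.044 to 0.077 for CISH and -0.083 to 0.18 for SOCS1. RuxP ran from -0.16 to 0.45 for SOCS4, -0.25 to 0.17 for SOCS5 and -0.59 to 0.28 for SOCS6, and FedP from -0.58 to 0.066 for SOCS4.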

Other observations

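Control cells of the 3 tables, which were scaled separately and are set side by side without a test, differed in several members. SOCS3 stood at 7.68 ± 3.93 CPM in parental cells, against 68.9 ± 0.659, 41.4 ± 9.53 and 57.0 ± 7.16 CPM in DMSO at 4 h, 48 h and 24 h (SD, n = 2). CISH stood at 29.1 ± 14.8 CPM in parental cells, against 69.0 ± 5.54, 65.1 ± 2.46 and 47.9 ± 0.391 CPM, and SOCS1 at 1.26 ± 0.578 CPM, against 8.33 ± 0.0112, 5.16 ± 1.90 and 3.80 ± 0.0486 CPM. The FedP level of SOCS3, 32.9 ± 2.07 CPM, lay below every DMSO library. SOCS7 had 24.5 and 23.5 CPM in DMSO at 24 h but 41.7 to 49.4 CPM in the 4 DMSO libraries of the BCI table, so that its level under BI-D1870, 40.2 and 39.6 CPM, was just under the lowest of those.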
